A study of Mus musculus with 8 samples.

Results

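The comparison described here was between mouse induced pluripotent stem cells (iPSCs) of a wild-type line and iPSCs of a miR-203 knock-in line that had not been induced. iPSCs are cells that were returned from a differentiated state to one resembling the cells of the embryo. The libraries were chosen by their labels: 4 wild-type and 2 uninduced knock-in libraries, 6 of the 8 in the series. The wild-type iPSCs came from embryonic fibroblasts of mice labelled ColA1_miR203 (+/+); Rosa26rtTA (+/+), in which the plus signs stand for unmodified alleles. Each wild-type library had received a different small interfering RNA (siRNA) and was collected 1 week after transfection. The siRNAs were siControl, siDnmt3a, siDnmt3b, and siDnmt3a with siDnmt3b, and there was 1 library of each. The knock-in iPSCs came from fibroblasts labelled ColA1_miR203 (KI/KI); Rosa26rtTA (KI/KI), which carry a doxycycline-inducible miR-203 allele and the rtTA activator it needs. The 2 knock-in libraries were labelled clone 1 and clone 2, not induced, with vehicle as the treatment. Their free-text description also speaks of doxycycline treatment, so the labels differ on this point. The title and the treatment label were followed. The remaining 2 libraries, clones given doxycycline for 5 days and then withdrawn for 2 weeks, entered no value below unless named.

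Both lines were grown over feeder cells in serum-replacement medium, and polyadenylated RNA was sequenced. Genotype, derivation, transfection, siRNA and time in culture all changed together between the groups, so their parts in any difference below cannot be told apart. The labels do not say that the 4 wild-type libraries were separate clones. The p-values therefore measure only the spread between these libraries, which may be technical.

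Mouse pluripotent cells can be kept in a range of states. In the naive state, which resembles the preimplantation epiblast, LIF and STAT3 signalling and factors such as Nanog, Esrrb, Klf4 and Tfcp2l1 keep cells undifferentiated. In formative and primed states, which resemble the epiblast after implantation, FGF and ERK signalling, Nodal and Activin signalling and the de novo DNA methyltransferases are more active. Pluripotent cells are also known for a weak response to interferon and to viral RNA compared with differentiated cells such as fibroblasts.

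Expression was given as FPKM, fragment counts scaled to the length of the transcript and to the size of the library. How Cuffnorm, the authors' tool, scaled the libraries to each other is not given. Differences were computed as knock-in minus wild-type on log2(FPKM + 1), a scale that understates changes of weakly expressed genes. A gene was tested when its mean FPKM over the 6 libraries was 1 or more, and it passed when its limma adjusted p was under 0.05. Of 11931 genes tested, 7941 passed (66.6%). They were nearly balanced between 4021 genes higher in knock-in (33.7%) and 3920 lower (32.9%). A difference of at least 2-fold on this scale was added for 996 genes higher (8.35%) and 693 lower (5.81%). Counts of 2-fold genes below use this scale, whereas fold values of single genes are ratios of mean FPKM. The median over all genes was -0.0008 and the SD 0.80. Because so many genes passed, each list count below is to be read against these shares. The lists were chosen with earlier results of these data known, so a count above a share is not independent support. A gene near 0 in 1 line entered the test only through the other line, which fixed its direction. The list counts include such genes. The lines were far apart relative to the spread within them. Pearson's r over genes was 0.993 to 0.998 between wild-type libraries, 0.994 between the clones, and 0.897 to 0.917 between lines. Between 9 and 25 genes differed 2-fold in pairs of wild-type libraries and 24 between the clones, against 1573 to 2026 in pairs across lines. Summed FPKM ranged from 488624 to 586657, highest in the wild-type library with both siRNAs, and 11620 to 11767 genes reached 1 FPKM. The depth in fragments is unknown, so no counting intervals are given.

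**Figure D1:**
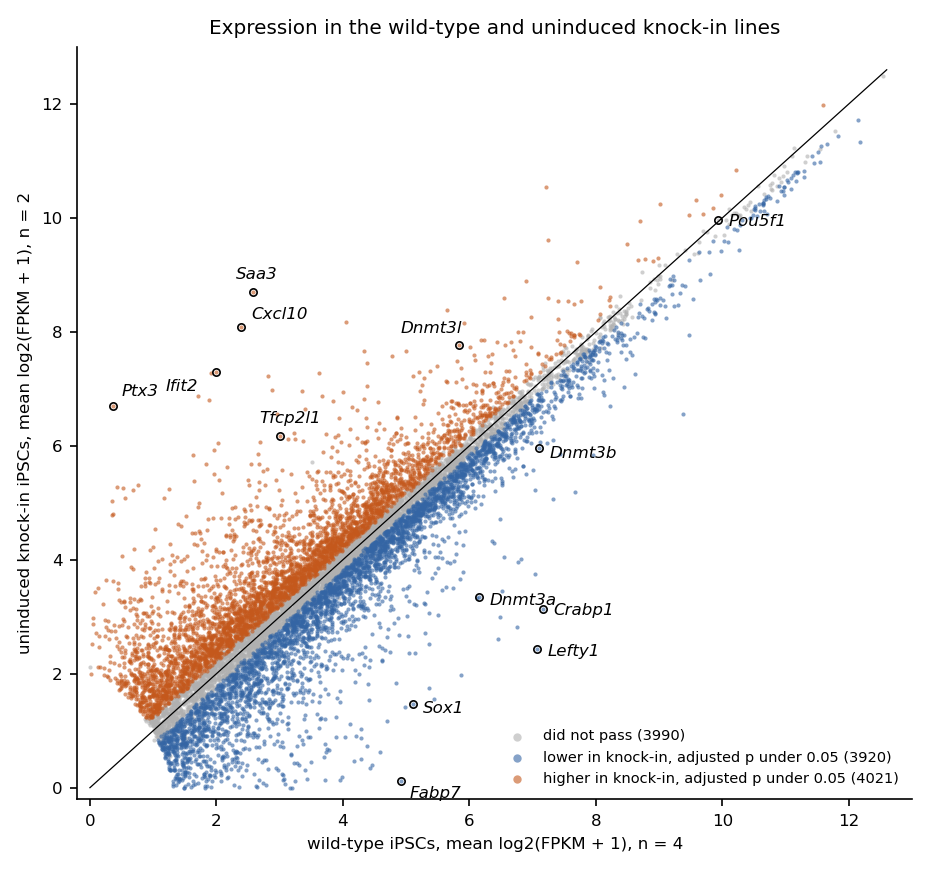
Mean log2(FPKM + 1) of each tested gene in the 4 wild-type libraries (x axis) and the 2 uninduced knock-in libraries (y axis), coloured by the limma call, with the line of equal expression. Pou5f1 lies on that line, Saa3, Cxcl10, Ifit2 and Ptx3 lie far above it, and Fabp7, Lefty1 and Crabp1 far below.

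Both sets of libraries carried markers of pluripotent cells. Pou5f1, which encodes OCT4, was at 888, 915, 922 and 1223 FPKM in the wild-type libraries and at 1048 and 947 FPKM in the clones. These ranges overlapped, and the difference was 0.03 ± 0.14 (SE; limma adjusted p = 0.88). Sox2, Nanog, Zfp42, Sall4 and Lin28a were likewise detected in every library, the lowest being Sall4 at 35.3 FPKM in clone 2. Of 12 genes of the core pluripotency list, 2 were higher in knock-in, 3 were lower and 7 did not pass, and the median difference was -0.15. Sox2 and Tdgf1, a Nodal co-receptor, were higher by 0.33 and 0.38. Utf1, a chromatin-associated factor, was lower by 0.97, from 252 ± 29.4 (SD, n = 4) to 128 ± 0.66 (SD, n = 2) FPKM. Lin28a, an RNA-binding protein that blocks let-7 maturation, differed by -0.70, and Sall4 by -0.49. The number of lower core genes rested on single libraries, and was 6 without the wild-type library with both siRNAs, 5 without clone 1 or with quantile normalization, and 7 after correction for GC content and length.

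Most naive pluripotency genes were higher in knock-in. Of 16 tested, 14 were higher, 12 of them at least 2-fold, and 2 were lower, with a median difference of 1.49. Tfcp2l1, a transcription factor of the naive network, was at 7.98, 6.81, 7.01 and 6.30 FPKM in the wild-type libraries and at 72.2 and 70.2 FPKM in the clones. Every wild-type value was thus under 8 and both clones were above 70, a 10.1-fold difference in mean FPKM (log2 difference 3.17 ± 0.09 SE, limma adjusted p = 2.3e-08). Tbx3, another naive factor, rose 5.90-fold, from 3.75 ± 0.54 to 22.1 ± 2.05 FPKM. Tcl1, a co-activator of AKT, differed by 2.01. Esrrb, an orphan nuclear receptor, was at 46.0, 43.5, 42.3 and 44.6 FPKM against 175 and 162 FPKM, 3.82-fold higher. Nanog was 3.23-fold higher, with 69.3 to 77.6 FPKM in wild-type and 256 and 209 FPKM in the clones. Klf4 was 3.36-fold higher and Zfp42, also known as Rex1, 2.55-fold higher. The exceptions were Gbx2 and Dppa3. Gbx2, a homeobox gene that is also used in neural patterning, was at 84.6, 91.2, 83.4 and 96.5 FPKM in wild-type and at 6.67 and 7.24 FPKM in knock-in, 12.8-fold lower (limma adjusted p = 1.2e-08). Dppa3, a maternal factor known as Stella, was lower by 0.42. Summed FPKM of the feeder fibroblast markers also differed, at 349 to 504 in wild-type and 1041 and 1214 in the clones.

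Genes of the formative and primed states went the other way. Of 9 tested, 8 were lower in knock-in, 6 of them 2-fold, and none was higher, with a median difference of -1.02; Fgf5 and Fgf8 were under the filter. Pou3f1, the POU factor OCT6, was at 33.3, 33.1, 33.5 and 38.2 FPKM in wild-type and at 4.17 and 4.15 FPKM in knock-in. Sall2, a zinc-finger factor, fell from 30.6 ± 0.41 to 1.68 ± 0.35 FPKM, 18.2-fold, and Lef1, a mediator of Wnt signalling, from 14.5 ± 0.35 to 1.92 ± 0.99 FPKM. For both genes the clones lay far below the whole wild-type range. Otx2, a homeobox factor at the head of the formative state, did not pass: it was 7.35 ± 0.68 FPKM in wild-type and 7.34 ± 0.73 FPKM in knock-in. In bulk RNA such as this, fewer cells of a state and less RNA per cell cannot be told apart.

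**Figure D2:**
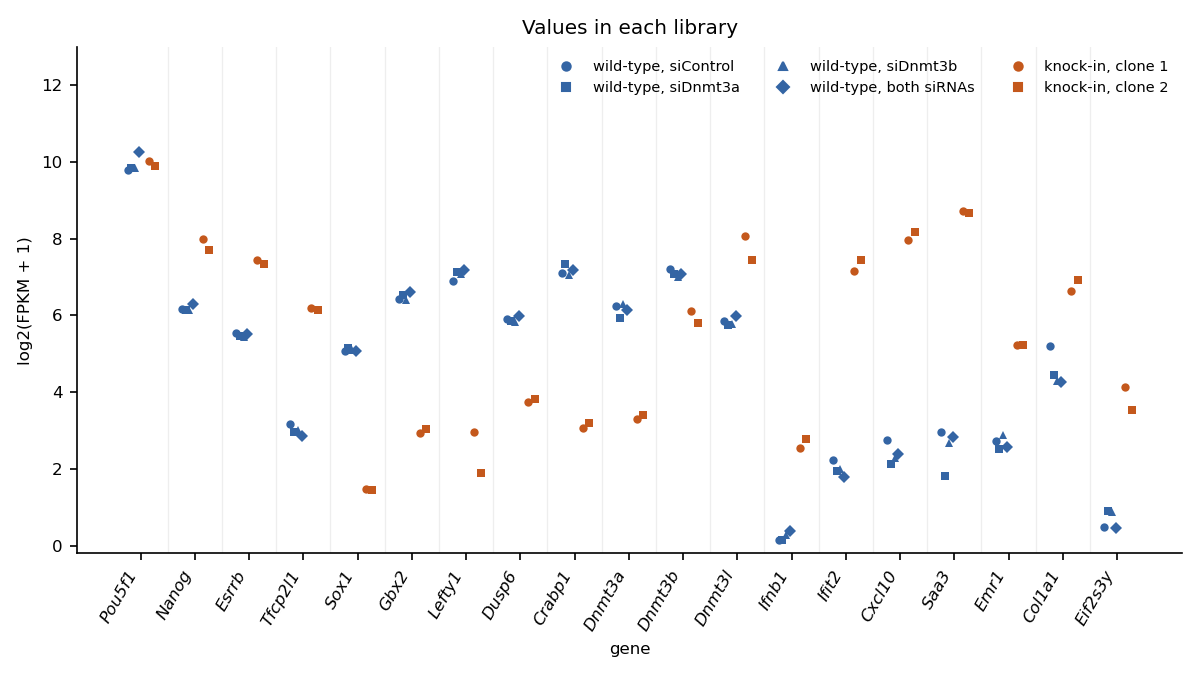
Values of 19 genes in each of the 6 libraries as log2(FPKM + 1), with wild-type libraries in blue by siRNA and knock-in clones in orange. For Pou5f1 the groups overlap, and for the other genes shown the clones lie apart from the 4 wild-type libraries, above them for Nanog, Esrrb and Tfcp2l1 and below them for Sox1, Gbx2, Lefty1 and Dnmt3a.

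Dnmt3a and Dnmt3b, the targets of the siRNAs, differed between the lines by more than between siRNA libraries. Dnmt3a, a de novo methyltransferase, was at 75.1 FPKM with siControl, 59.8 with siDnmt3a, 77.6 with siDnmt3b and 69.5 with both, and at 8.85 and 9.55 FPKM in the clones. The clones were 7.66-fold below the wild-type mean (log2 difference -2.80 ± 0.10 SE, limma adjusted p = 8.4e-08), whereas the siDnmt3a library, collected 1 week after transfection, was the lowest wild-type library but still near 60. Dnmt3b, the other de novo enzyme, was at 146, 135, 128 and 135 FPKM in the same order and at 68.8 and 55.1 FPKM in the clones, lower by 1.13. Dnmt3l, their catalytically inactive cofactor, was higher in knock-in, at 270 and 174 FPKM against 52.7 to 62.5 FPKM. Its value in clone 1 was well above that in clone 2, and both exceeded every wild-type value. Dnmt1, which copies methylation at replication, was 79.0 ± 0.51 FPKM in wild-type and 77.7 ± 2.73 FPKM in knock-in and did not pass. The sign of its small difference changed with quantile normalization, with correction for GC content and length, and without clone 2. Uhrf1, the partner that recruits Dnmt1, was 1.30-fold higher. Hells, a chromatin remodeller, was higher by 0.50 (limma adjusted p = 0.028), but its difference was 0.08 (adjusted p = 0.42) after correction for GC content and length, and it did not pass without the siDnmt3a library or without either clone.

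Among genes of DNA demethylation and methyl-CpG reading, 7 of 10 were higher in knock-in and 3 lower. Tet2, a methylcytosine dioxygenase, was 2.26-fold higher and Tet1 1.75-fold higher, from 23.1 ± 3.01 to 40.6 ± 1.09 FPKM. Tet3, the third member of the family, was 3.65-fold lower, and Tdg, the glycosylase acting downstream of TET enzymes, was lower by 0.94. The family thus did not move as a block. Mbd3, a subunit of the NuRD complex, was lower by 0.77. Heterochromatin repressors were also divided, with 7 of 14 higher and 5 lower. Only 3 were higher without clone 1. Zfp57, which protects methylation at imprinted loci, was 3.09-fold higher, at 242 and 219 FPKM against 71.1 to 78.3 FPKM. Suv39h1, a histone H3 lysine methyltransferase, was 2.74-fold lower.

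FGF and ERK signalling genes, which include ligands, receptors and readouts, were mostly lower in knock-in. Of 14 genes, 9 were lower, 7 of them 2-fold, and 1 was higher, with a median difference of -1.03; without the library with both siRNAs 2 were higher. Egr1, an immediate-early gene, was at 13.8, 10.4, 10.8 and 13.6 FPKM in wild-type and at 0.41 and 0.51 FPKM in knock-in. Dusp6, a phosphatase that ERK induces and that switches ERK off, was at 55.9 to 62.9 FPKM against 12.4 and 13.3 FPKM, 4.58-fold lower. Spry2, a feedback inhibitor, was 2.26-fold lower and Spred1 2.05-fold lower. Receptors followed, Fgfr2 being 14.2-fold lower and Fgfr1 lower by 1.07, as did the ligand Fgf15, lower by 2.36. Fgf4, the ligand made by pluripotent cells, was the higher gene, at 91.2 and 89.4 FPKM against 33.1 to 35.3 FPKM. Fgf4 is also on the naive list. Etv4, Etv5, Spry4 and Fos, also readouts of the pathway, did not pass, with differences from -0.09 to 0.13.

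In the Nodal pathway 7 of 10 tested genes were lower and 2 higher, with a median difference of -0.67. Lefty1, a secreted Nodal inhibitor and Nodal target, was at 119, 139, 134 and 144 FPKM in wild-type and at 6.77 and 2.73 FPKM in knock-in. It was 28.1-fold lower, among the largest decreases of all genes. Lefty2, its close relative, was 2.39-fold lower. The ligand Nodal itself was lower by 0.36, a much smaller difference. Among the signal transducers, Smad3 was lower by 0.98 and Smad2 did not pass.

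LIF and STAT3 genes were higher in 8 of 11 cases and lower in 1, with a median difference of 0.60. None reached 2-fold on the log2(FPKM + 1) scale. In mean FPKM, Lif was 2.42-fold and Jak1 2.09-fold higher. Stat3 was 1.97-fold higher, at 42.5 and 44.4 FPKM against 21.7 to 22.7 FPKM. The receptor gene Lifr was 1.65-fold higher, Il6st (gp130) was higher by 0.92, and Socs3, a STAT3 target and inhibitor, was 1.53-fold higher. Pim1, a kinase gene that STAT3 activates, was lower by 0.76. Cntfr, the receptor subunit for the related cytokine CNTF, was 17.6-fold lower, from 107 ± 8.83 to 6.10 ± 0.71 FPKM, and was 1 of the 12 largest decreases. Wnt genes showed no common direction, with 2 of 10 higher and 5 lower. Only 1 was higher on leaving out any of 5 libraries (siControl, siDnmt3a, siDnmt3b, clone 1 or clone 2), or with quantile normalization. Axin2, a feedback target of beta-catenin, was 1.72-fold higher while Lef1 was lower. BMP genes were divided as well, with 3 of 10 higher and 5 lower. Bmp4 was 5.27-fold higher and Id3 2.00-fold higher, whereas Id2, another BMP target, was 4.79-fold lower and Dusp9, a phosphatase that acts on ERK, was lower by 1.99.

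Most neuroectoderm genes tested were lower in knock-in. Of 8 neuroectoderm genes tested, 6 were lower and 2 (Ncam1 and Mtap2) higher, with a median difference of -1.38. Fabp7, a fatty-acid binding protein of neural progenitors, had the largest decrease of all genes under the naming rule. It was at 28.0, 29.0, 33.8 and 27.0 FPKM in wild-type and at 0.057 and 0.117 FPKM in knock-in (log2 difference -4.81 ± 0.10 SE, limma adjusted p = 7.9e-09). Fabp7 reached the filter only through the wild-type libraries, which fixed its direction. Sox1, the SOX factor of early neuroectoderm, was at 32.8, 34.7, 33.3 and 32.8 FPKM against 1.76 and 1.75 FPKM, lower by 3.64. Pax6 was 7.69-fold lower and Nes, the intermediate filament nestin, 2.99-fold lower. These genes were therefore detected in every wild-type library at levels the clones did not approach.

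Hox genes, which pattern the body axis in clusters, differed by cluster. Among 39 Hox genes, 19 were tested, and 17 of those were lower in knock-in, 15 of them 2-fold, 1 was higher and 1, Hoxb9, did not pass. The median difference of those tested was -2.15. With no filter it was -0.30 over all 39, with 6 higher and 21 lower. In the Hoxa cluster 8 of 8 tested genes were lower, and mean FPKM summed over them was 57.1 in wild-type and 2.10 in knock-in. In the Hoxb cluster 8 of 9 were lower, with sums of 49.7 and 4.08 FPKM. Hoxb2 was at 16.4, 18.3, 15.7 and 17.6 FPKM against 0.34 and 0.44 FPKM. Hoxb1 was at 7.65 to 8.22 FPKM in wild-type and was listed at 0 in both clones. In contrast, 1 of 9 Hoxc and 1 of 9 Hoxd genes passed the expression filter. Hoxc4 was lower by 0.35 and Hoxd13 higher by 0.35. The 20 genes under the filter were low in both lines, and those that passed did so mostly through wild-type expression.

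**Figure D3:**
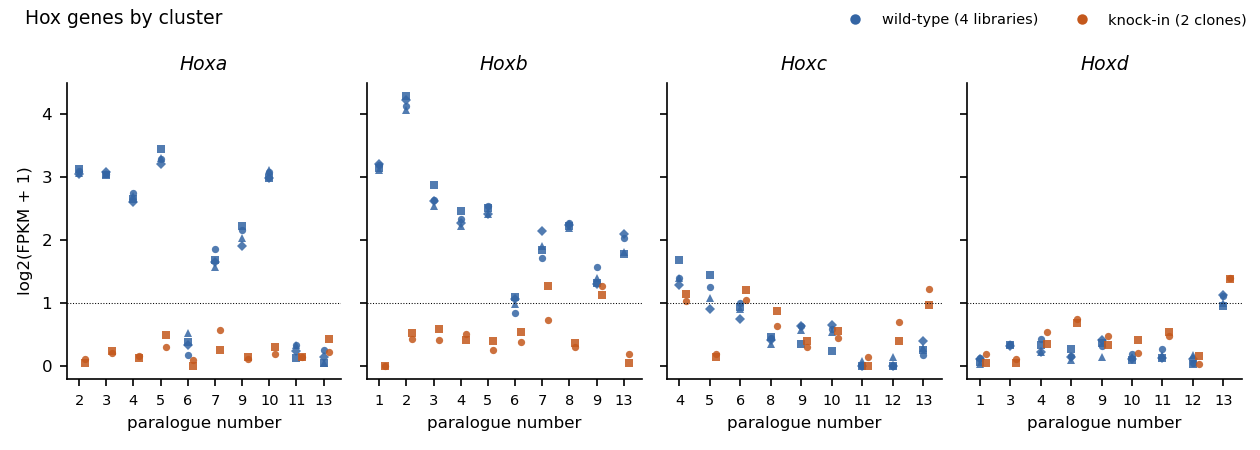
Values of the Hox genes in each library as log2(FPKM + 1), by cluster and paralogue number, for those described here, with wild-type libraries in blue and knock-in clones in orange; the dotted line marks 1 FPKM. Wild-type values exceed knock-in values along most of Hoxa and Hoxb, while Hoxc and Hoxd lie near or below 1 FPKM in both lines apart from a few genes.

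The list of largest decreases held both cellular retinoic acid binding proteins, and other retinoid genes were then looked up, so their choice followed the values. Crabp1 was at 136, 160, 133 and 144 FPKM in wild-type and at 7.39 and 8.21 FPKM in knock-in, 18.4-fold lower. Crabp2 was 19.2-fold lower. The receptor genes Rara and Rarg were 2.08-fold and 2.32-fold lower, and Rarb was at 1.68 ± 0.28 against 0.118 ± 0.030 FPKM. Stra8, a retinoid-responsive germline gene, was at 9.89 ± 1.06 FPKM in wild-type and 0.118 ± 0.168 FPKM in knock-in. Cyp26a1, which encodes a retinoic acid hydroxylase, was under the filter, at 0.406 ± 0.043 and 0.062 ± 0.019 FPKM. Aldh1a2, which makes retinoic acid, was higher in knock-in, at 2.22 ± 0.23 against 0.668 ± 0.173 FPKM, and Rdh10, which acts before it, did not pass. The homeobox genes Meis1 and Meis2, partners of Hox proteins, were 10.6-fold and 3.93-fold lower. Also among the 12 largest decreases were Car3 and Car4, carbonic anhydrases, Prtg, a membrane protein of the early embryo, Mmp25, a membrane-bound metalloproteinase, and the imprinted genes Cdkn1c and Nnat.

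Imprinted genes, expressed from the allele of 1 parent, were mostly lower in knock-in. Of 27 tested, 17 were lower, 10 of them 2-fold, and 4 were higher, with a median difference of -0.74. Cdkn1c, a cyclin-dependent kinase inhibitor expressed from the maternal allele, was at 40.0, 40.8, 38.2 and 52.6 FPKM against 2.21 and 1.72 FPKM, 21.9-fold lower. Nnat, a neuronal proteolipid gene expressed from the paternal allele, was 17.0-fold lower. Peg12 was 43.7-fold lower, from 18.6 ± 1.08 to 0.425 ± 0.093 FPKM. The decreases thus included genes of both parental origins. Grb10, a growth-factor receptor adaptor, was 9.08-fold lower, Peg10 7.56-fold and Mest 4.37-fold. Slc38a4, an amino-acid transporter gene, was at 37.9 to 41.4 FPKM against 5.01 and 10.7 FPKM, the clones differing from each other. The 4 higher genes were Meg3, Plagl1, Slc22a18 and Zrsr1. Meg3, a long noncoding RNA often lost in iPSCs, was at 62.6 to 67.6 FPKM in wild-type and at 87.2 and 82.1 FPKM in knock-in. Igf2, Igf2r and Rian did not pass. Allelic expression was not measured by these values.

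**Figure D4:**
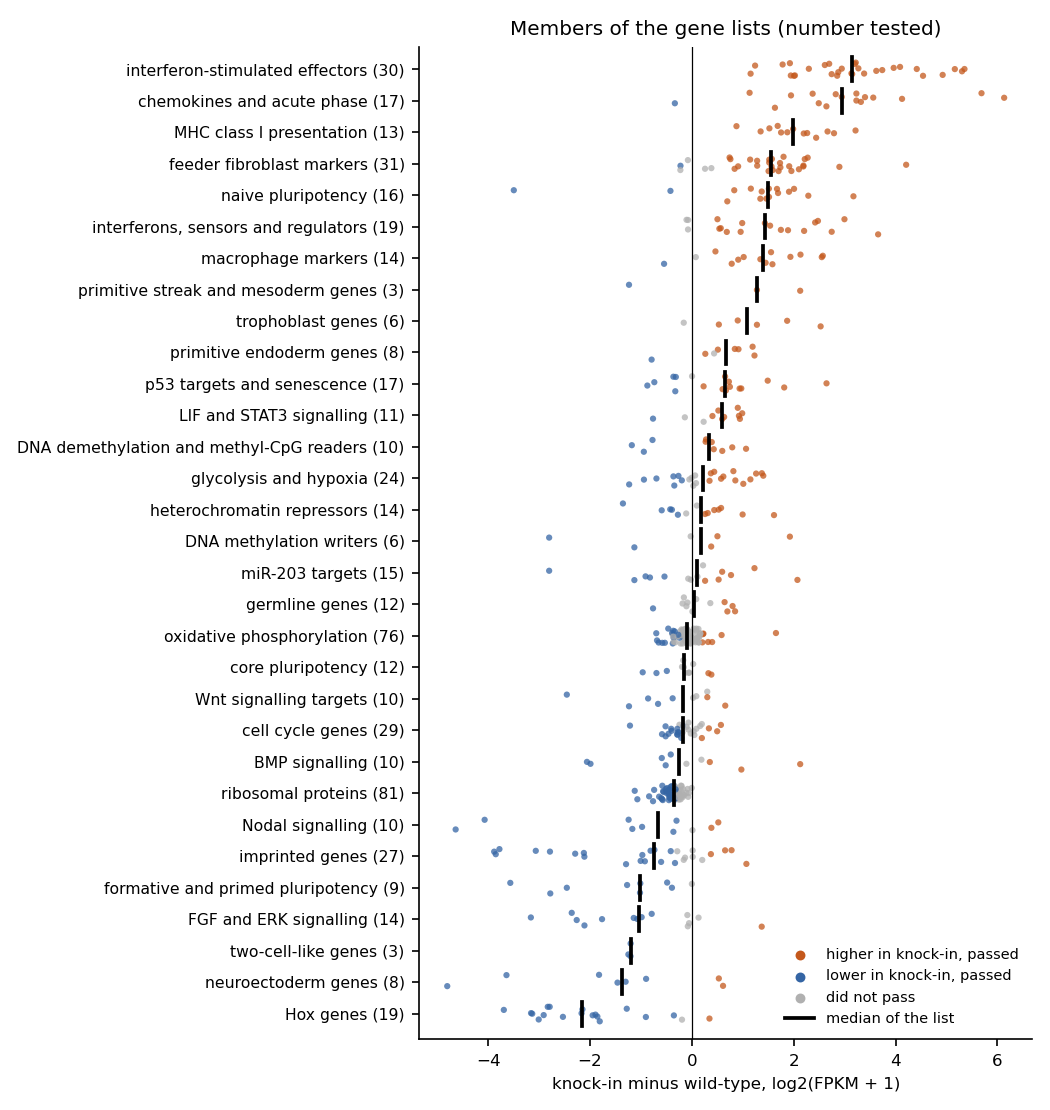
Differences of the tested members of each gene list, knock-in minus wild-type on log2(FPKM + 1), with each point a gene, colour giving the limma call and a bar the median of the list. Interferon-stimulated effectors have the highest median (3.14).

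Genes of the interferon response were higher in knock-in with no exception among the effectors tested. These are antiviral genes that interferons switch on. All 30 tested were higher and all 30 at least 2-fold, with a median difference of 3.14 and a range of 1.15 to 5.35. Their summed FPKM was 696 to 867 in the wild-type libraries and 3226 and 3708 in the clones. Gbp2, a guanylate-binding protein, was at 3.19, 2.30, 2.55 and 3.21 FPKM in wild-type and at 138 and 172 FPKM in knock-in, 55.1-fold higher (log2 difference 5.35 ± 0.13 SE, limma adjusted p = 1.4e-08). Ifit2, which binds viral RNA, was at 3.69, 2.89, 2.98 and 2.45 FPKM against 142 and 172 FPKM, 52.3-fold higher. Rsad2, the antiviral enzyme viperin, was at 2.24, 2.32, 1.99 and 2.57 FPKM against 99.9 and 136 FPKM. Clone 2 was the higher of the clones for 29 of the 30 effectors, and both clones lay far above all wild-type libraries for the genes named. Oasl1 was 41.1-fold higher, Mx1 54.9-fold, Zbp1, a nucleic acid sensor, 24.5-fold, and Ifit1 19.4-fold. Isg15, a ubiquitin-like modifier, was higher already in wild-type, at 42.1 to 66.5 FPKM, and was 294 and 382 FPKM in the clones. Gbp5 and Ifi205, relatives of members of the list, were also among the 12 largest increases. Members of the Oas, Ifi200 and Gbp families have close copies, and reads between them may have been divided by the authors' counting.

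Promoters of the effectors often held the core of the interferon-stimulated response element, a sequence through which interferons act on promoters. The list was made of genes that interferons switch on, so this describes the list and not the lines. The motif searched was GAAA, any 2 bases and GAAA again, on either strand, so that it reads TTTC, 2 bases and TTTC on the other; overlapping matches were allowed. Of 22 effectors with a RefSeq promoter, 14 held it (63.6%), as did 352 of 9336 tested genes with a promoter (3.77%). Counted by promoter, 15 of 26 effector promoters held it (57.7%), and 1131 of all 32851 promoters of the same length (3.44%). The promoters below are those of the 3 effectors with the largest difference among those with the motif, from 250 bases before to 50 after the start of the gene in GRCm38.p6, with the motif in capitals. Ifit1 holds 2 copies. A match describes these letters only and is not evidence of binding.

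Gbp2, chr3:142620413-142620712, plus strand: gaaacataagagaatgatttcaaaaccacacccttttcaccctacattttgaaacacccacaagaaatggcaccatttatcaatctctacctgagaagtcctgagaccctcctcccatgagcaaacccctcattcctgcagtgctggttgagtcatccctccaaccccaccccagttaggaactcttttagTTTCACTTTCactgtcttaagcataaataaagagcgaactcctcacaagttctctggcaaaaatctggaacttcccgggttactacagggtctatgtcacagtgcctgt
Rsad2, chr12:26456403-26456702, minus strand: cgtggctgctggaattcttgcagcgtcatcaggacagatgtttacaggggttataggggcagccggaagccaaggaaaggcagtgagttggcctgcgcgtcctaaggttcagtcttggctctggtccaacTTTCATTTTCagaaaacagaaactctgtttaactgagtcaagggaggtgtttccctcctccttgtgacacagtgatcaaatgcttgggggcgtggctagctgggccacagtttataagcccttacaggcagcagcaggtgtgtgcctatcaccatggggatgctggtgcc
Ifit1, chr19:34640639-34640938, plus strand: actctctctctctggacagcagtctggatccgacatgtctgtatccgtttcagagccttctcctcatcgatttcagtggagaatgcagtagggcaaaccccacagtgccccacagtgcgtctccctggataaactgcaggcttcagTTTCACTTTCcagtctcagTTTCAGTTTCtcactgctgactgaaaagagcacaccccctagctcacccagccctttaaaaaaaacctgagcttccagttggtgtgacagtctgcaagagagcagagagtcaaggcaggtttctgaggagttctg

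Upstream genes of the pathway were higher as well. Of 19 interferon, sensor and regulator genes tested, 16 were higher, 10 of them 2-fold, and none was lower, with a median difference of 1.44. Ifnb1, the gene of interferon beta, was at 0.108, 0.108, 0.222 and 0.291 FPKM in wild-type and at 4.81 and 5.87 FPKM in knock-in, 29.3-fold higher. It reached the filter only through the clones. Irf7, which amplifies interferon production, was 13.6-fold higher, from 11.4 ± 1.96 to 155 ± 15.5 FPKM, and Stat2 was 8.81-fold higher. The cytoplasmic RNA sensors Ifih1 (MDA5) and Ddx58 (RIG-I) were 12.9-fold and 5.93-fold higher, and Tlr3, an endosomal sensor of double-stranded RNA, 10.3-fold. Irf3, Ifnar1 and Ifngr1 did not pass, with differences of -0.10, -0.07 and -0.08. Under quantile normalization 2 genes of the list were lower.

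All 13 tested genes of MHC class I presentation were higher in knock-in, 12 of them 2-fold, with a median difference of 1.99. B2m, the invariant chain, was at 148, 111, 118 and 99.7 FPKM against 445 and 500 FPKM. Tapbp (tapasin), which loads peptide onto class I molecules, was 9.98-fold higher, and the immunoproteasome subunits Psmb9 and Psmb8 were 9.03-fold and 6.26-fold higher. H2-K1, a classical heavy chain, was 2.90-fold higher, though class I heavy chains are near-identical copies whose reads can be exchanged. Clone 2 exceeded clone 1 for 13 of the 13.

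Chemokine and acute-phase genes were higher for 16 of 17 tested, all 16 at least 2-fold, with a median difference of 2.94. Saa3, an acute-phase apolipoprotein, was at 6.78, 2.50, 5.40 and 6.16 FPKM in wild-type and at 423 and 410 FPKM in knock-in, 79.9-fold higher. Cxcl10, a chemokine induced by interferon, was at 5.79, 3.39, 3.85 and 4.19 FPKM against 251 and 288 FPKM, 62.6-fold higher. Ccl5 was 18.6-fold higher and Ccl2 10.1-fold higher. Wild-type values of these genes were low but not 0. Il6 was at 0.079 FPKM or less in the wild-type libraries, listed at 0 in 1 of them, and at 6.11 and 6.63 FPKM in the clones. Il6 thus reached the filter only through the clones. Cx3cl1, a membrane-bound chemokine, was the lower gene, by 0.33. Ptx3, a secreted pattern-recognition protein, showed the largest increase of all genes under the naming rule, from 0.297 ± 0.162 to 103 ± 7.05 FPKM (log2 difference 6.33 ± 0.11 SE, limma adjusted p = 5.8e-09). Ptx3 was under 1 FPKM in every wild-type library, so it reached the filter only through the clones, which fixed its direction. Serpina3n, an acute-phase protease inhibitor, and Marco, a macrophage scavenger receptor, were 59.6-fold and 70.1-fold higher. Il1b, Tnf and Nos2, inflammatory genes looked up after these values were seen, differed by 4.43, 3.23 and 3.37. Their mean FPKM was 0.287, 0.566 and 0.090 in wild-type and 26.8, 13.7 and 10.3 in knock-in. Marco was at 0.472 and 33.1 FPKM. Marco, Il1b, Tnf and Nos2 also reached the filter only through the clones.

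Markers of feeder fibroblasts and of macrophages moved in the same direction between the lines as these immune genes and as the naive genes. Between the clones the order differed. Clone 1 was above clone 2 for 11 of the 16 naive genes. Clone 2 was above clone 1 for 27 of the 31 fibroblast markers and 10 of the 14 macrophage markers. Of 31 fibroblast markers tested, 26 were higher in knock-in, 22 of them 2-fold, 1 (Serpinf1) was lower and 4 (Tagln, Twist1, Mmp2, Col6a3) did not pass. Summed FPKM of the list was 504 in the siControl library, 349 to 369 in the other wild-type libraries, and 1041 and 1214 in the clones. Lox, a collagen cross-linking enzyme, was at 3.28, 1.78, 2.15 and 1.49 FPKM against 52.9 and 60.3 FPKM, and Fbln2, a matrix protein, was 4.98-fold higher. Col3a1 was higher by 0.84, and Pdgfra and Lum were under the filter. The increases among defining fibroblast genes were thus uneven, from 0.74 (Col6a2) to 4.21 (Lox) among those that passed. The siControl library was the highest wild-type library for 28 of the 31. No marker of the list was lower without the siControl library, without the siDnmt3a library or without clone 1, and 2 were lower without the library with both siRNAs.

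Of 14 macrophage markers, 12 were higher, 9 of them 2-fold, Itgam was lower and Lyz2 did not pass, with a median of 1.40. Summed FPKM was 206 to 271 in wild-type and 478 and 501 in the clones. Emr1, which encodes F4/80, was at 5.62, 4.70, 6.44 and 4.94 FPKM against 36.5 FPKM in both clones. Aif1 was 10.2-fold higher, and Laptm5 4.57-fold. Lyz2, abundant in macrophages, was 114 ± 17.2 against 120 ± 12.7 FPKM, and Itgam, which encodes CD11b, was 1.89 ± 0.30 against 0.975 ± 0.067 FPKM. No marker of either list was listed at 0 in every library. The part of feeder or other cells in the immune and naive differences was not tested.

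The knock-in alleles lie by design at the Col1a1 and Rosa26 loci, and expression of neighbouring genes was described within 500 kb. Col1a1 (chromosome 11, 94936224 to 94953042 in GRCm38) was at 18.2 to 36.1 FPKM in wild-type, highest with siControl, and at 98.3 and 120 FPKM in the clones, 4.64-fold higher. It is also a fibroblast marker, and its collagen partner Col1a2, on another chromosome, was higher by 1.70. Of 14 genes tested around Col1a1, itself included, it alone was higher and 6 were lower, with a median of -0.14. Itga3, an integrin subunit gene, was 2.43-fold lower. Around Rosa26, 4 of 23 tested genes were higher and 6 lower, with a median of -0.05 and none at 2-fold on the log2(FPKM + 1) scale. In mean FPKM some weakly expressed neighbours differed by more. Lhfpl4 was at 1.44 FPKM in wild-type and 0.35 in knock-in, and Il17rc at 1.45 and 3.64 FPKM. The noncoding host transcript Gt(ROSA)26Sor did not pass, at 7.71 ± 0.66 against 9.02 ± 0.66 FPKM.

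Mir203, the endogenous hairpin gene (chromosome 12, 112130880 to 112130955), was listed at 0 in the 4 wild-type libraries and in clone 1, and at 17.7 FPKM in clone 2. It did not pass (limma adjusted p = 0.062), and its only value above 0 was that of clone 2. Polyadenylated RNA libraries do not measure mature miRNAs, and which allele gave the reads is not known. The mature forms of this hairpin, from RefSeq for GRCm38.p6, are shown with their seeds (bases 2 to 8) in capitals because the seed selects target transcripts.

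mmu-miR-203-3p: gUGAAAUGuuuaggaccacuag
mmu-miR-203-5p: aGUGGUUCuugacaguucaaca

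Of 15 reported miR-203 targets tested, 6 were higher in knock-in and 5 lower, with a median difference of 0.11. These shares are close to those of all genes. The lower genes were Dnmt3a, Dnmt3b, Zeb2, Abl1 and Ran. Zeb2, a repressor of epithelial genes, was 2.24-fold lower, and Abl1, a tyrosine kinase gene, 1.82-fold lower. The higher genes included Cav1, 5.81-fold, and Sparc, 2.35-fold, both also expressed by fibroblasts.

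Cell cycle genes showed small differences, most of those that passed being lower. Of 29, 14 were lower, 4 higher and 11 did not pass, with a median of -0.18; without clone 2, 7 were lower. Ccne1, which drives entry into S phase, was at 152, 152, 159 and 174 FPKM against 67.3 and 68.4 FPKM, 2.35-fold lower. Cdc6 and Rrm2 were lower by 0.52 and 0.46. Ccnd2 and Cdk2 were higher by 0.57 and 0.50. Mki67, Top2a, Pcna and Ccnb1 did not pass, with differences of -0.24, 0.16, -0.11 and -0.02. Ccnd1 was lower by 0.59, a difference that shrank to -0.20 and did not pass without clone 2.

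Targets of p53 and senescence genes were higher for 11 of 17 and lower for 5, with a median of 0.65; without clone 2, 3 were lower. Cdkn1a, which encodes the cell cycle inhibitor p21, was at 40.5, 36.5, 34.3 and 36.8 FPKM against 132 and 133 FPKM. Cdkn2a, the locus of p16 and p19ARF, was 2.90-fold higher, and Fas, a death receptor gene, 11.6-fold higher. Fibroblasts also express Cdkn2a. Among the lower genes were Gadd45a, by 0.87, and the apoptotic gene Pmaip1 (Noxa), by 0.74.

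Glycolytic and hypoxia genes were divided, with 12 of 24 higher and 7 lower. Without clone 1, 3 were lower. Pfkp, a phosphofructokinase, was 2.76-fold higher, Hk1 2.57-fold and Ero1l, an oxidase of the endoplasmic reticulum, 2.72-fold. Slc2a1, the glucose transporter GLUT1, was 2.34-fold lower, from 279 ± 22.98 to 119 ± 23.8 FPKM, while Slc2a3, GLUT3, was higher by 0.82. Clone 2 exceeded clone 1 for 21 of the 24.

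Ribosomal protein genes were lower for 54 of 81 tested and higher for none, with a median of -0.35. This count depended on the libraries fitted. It was 31 without the siDnmt3a library, 44 without the siDnmt3b library, 58 without the siControl library and 72 without the library with both siRNAs. The median changed less, from -0.40 (without clone 1) to -0.29 (without the library with both siRNAs), and was -0.33 without clone 2. After correction for GC content and length 65 were lower. Under quantile normalization 30 were lower and 6 higher, with a median of -0.07. Rpl30 was at 67.8 ± 7.76 against 31.6 ± 2.15 FPKM. The library with both siRNAs was the highest wild-type library for 80 of the 81. Of 76 oxidative phosphorylation genes, 7 were higher and 14 lower, with a median of -0.10. Without the library with both siRNAs 19 were higher and 27 lower, without clone 1 there were 8 lower and without clone 2 there were 7 lower. Cox6b2, a testis-type subunit of cytochrome c oxidase, was 3.33-fold higher.

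Markers of lineages outside the epiblast were few above the filter. Of 6 trophoblast genes tested 5 were higher, led by Tead4, at 14.9 and 15.3 FPKM against 1.63 to 1.86 FPKM; Cdx2 and Elf5 were under the filter. Of 8 primitive endoderm genes 6 were higher, mainly matrix genes that fibroblasts share, such as Col4a2 and Sparc, 1 was lower and 1 did not pass. The transcription factor genes Sox17, Gata6 and Foxa2 were under the filter, in a list in which 10 of 18 genes were, whereas Gata4 was tested. Among mesoderm genes T (Brachyury) was lower, at 0.19 and 0.22 FPKM against 1.36 to 2.10 FPKM, and Bmp4 and Eomes were higher. Of 12 germline genes tested 4 were higher, a share close to the 33.7% of all genes, 1 (Rpl10l) was lower and 7, Ddx4 among them, did not pass. Of 16 genes of the 2-cell-like state only Dub1a, Zscan4d and Zscan4f were tested, and each was lower by about 1.2. Zscan4d was at 1.43, 1.85, 1.81 and 1.19 FPKM against 0.15 and 0.07 FPKM. These genes have near-identical copies, so values of single copies are uncertain. Without the siDnmt3b library none reached the filter, and without the siDnmt3a library or the library with both siRNAs 1 did.

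Of 6 Y-linked genes 2, Eif2s3y and Ddx3y, were tested, and both were higher in knock-in. Both were under 1 FPKM in every wild-type library, so they entered the test only through the clones. Eif2s3y, a translation initiation factor gene on the Y chromosome, was at 0.397, 0.866, 0.846 and 0.379 FPKM in wild-type and at 16.5 and 10.7 FPKM in knock-in, 21.8-fold higher. Ddx3y was at 0.25 to 0.42 FPKM against 7.07 and 3.76 FPKM, and Uty, under the filter, at 0.05 to 0.18 against 2.37 and 1.46 FPKM. Clone 1 was higher than clone 2 for all 3. Kdm5d, Usp9y and Zfy1 were at 0.276 FPKM or less in every library, and Zfy1 overlapped between the lines. Xist, the RNA of the inactive X chromosome, was at 0.599, 0.387, 0.492 and 0.362 FPKM in wild-type and at 2.35 and 2.69 FPKM in knock-in, 5.48-fold higher but low in every library. The median difference of 396 X-linked genes was 0.01. Feeder markers were also higher in the clones, and their part in the Y-linked and Xist RNA was not tested.

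Medians by chromosome differed modestly. The lowest was that of chromosome 8, at -0.15, where 296 of 665 tested genes were lower and 169 higher, and both clones lay below all wild-type libraries. It was -0.09 after correction for GC content and length, an alternative chosen after the values were seen. Leaving out chromosome Y, on which 2 genes were tested, the highest was that of chromosome 1, at 0.11, which became -0.01 after the same correction. Chromosomes 14, 3 and 16 had medians of 0.10, 0.09 and 0.09. Over genes, the difference between lines correlated with GC content (Spearman's rho = -0.27) and with transcript length (0.13); genes are not independent replicates, and no p is given. Such a relation also appeared within the wild-type line, with rho of 0.54 for the library with both siRNAs and -0.59 for the siDnmt3b library, each set against the mean of the other wild-type libraries.

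**Figure D5:**
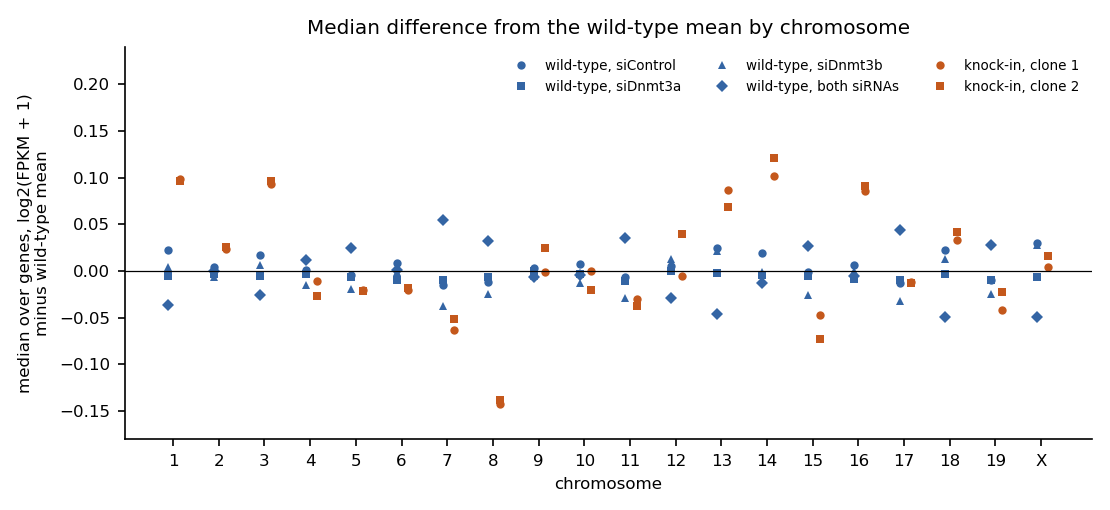
Median over tested genes of each library's difference from the wild-type mean, log2(FPKM + 1), by chromosome, with wild-type libraries in blue and knock-in clones in orange. On chromosome 8 both clones lie near -0.14, below all wild-type libraries, and on chromosomes 1, 3, 14 and 16 both lie near 0.1.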

How the data were processed

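RNA of 8 iPSC libraries was sequenced as strand-specific polyadenylated libraries on an Illumina instrument, per the labels' protocols. The authors deposited FPKM values for 23284 genes, made with Cuffnorm. Other tools, per the submitters' processing notes, were Cufflinks 2.2.1, SAMtools 0.1.19, TopHat2 2.0.10, Bowtie 1.0.0 and FastQC, with the builds GRCm38 and mm10. Not given in the sources used here were the annotation release, the strand setting and the scaling chosen in Cuffnorm. Depth in fragments is therefore unknown. Groups came from the labels. Differences between 4 wild-type and 2 uninduced knock-in libraries were tested in limma 3.58.1 (R 4.3.3; lmFit and eBayes with trend, two-sided, Benjamini-Hochberg adjustment) on log2(FPKM + 1), for genes whose FPKM averaged at least 1 in these libraries; the fit was tested on simulated data. Genes were placed with GENCODE M21. The genes and 33 gene lists were chosen with earlier results of these data known. Of 687 list entries, 684 were matched, 11 by an older symbol. Genes were named as the 12 largest differences a direction among those past the threshold whose groups did not overlap, the 4 largest of each list or up to 6 that passed, and fixed genes (methyltransferases, Col1a1, Mir203, Xist, Y-linked genes); small RNA genes, predicted genes and pseudogenes were passed over in the first of these. Members named outside this rule fill counts or illustrate a pathway and were chosen after their values were seen. Alternatives were pseudocount 0.1, no filter, a mean FPKM of 5 or more, median-ratio and quantile scaling, all 8 libraries, siControl alone, GC and length correction, no variance trend, and each library left out. A few genes are not reported here.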

Additional observations from a re-analysis of the deposited data

Results flagged for a closer look

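In each of 185 named genes, the wild-type library farthest from the other 3 was compared with the range of the group by Dixon's criterion, and 13 genes had a library apart. Chance gives about 1 in 20. In 9 of the 13 it was the library with both siRNAs: Utf1 (296 FPKM), Pou3f1 (38.2), Mbd3 (148), Mcm2 (213), Tubb3 (87.1), Cox7c (625), Rpl34 (147) and Rpl10l (38.6) were highest there, and Atrx (10.3) lowest. The siDnmt3b library was apart for Car3, at 21.4 FPKM, its highest, and Gata4, at 0.543 FPKM, its lowest. The siDnmt3a library was lowest for Ccnd1, at 64.3 FPKM. The siControl library was highest for Ptx3, at 0.538 FPKM.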

How the results depend on the processing

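Directions of the named genes held under the 15 alternatives except for Dnmt1, which did not pass in any: its difference was 0.00981 under quantile normalization, 0.0755 after correction for GC content and length, and -0.0591 to 0.0117 on leaving out single libraries. Of 186 named genes, 11 missed the threshold under at least 1 alternative. Without clone 1, Mir203 rested on clone 2 alone against wild-type libraries all listed at 0, so that fit was uninformative. With a mean FPKM of 5 or more, fewer genes were tested, and 2571 were higher, 554 of them 2-fold, and 385 lower 2-fold; Hox genes lower numbered 4 and higher 0, imprinted genes higher 1 and macrophage markers lower 0. With no filter 6 Hox genes were higher. With siControl as the only wild-type library, in which fewer samples were fitted, 2594 genes were lower and 0 Hox genes higher. Fibroblast markers lower numbered 2 under quantile normalization and with all 8 libraries, 0 after correction for GC content and length, and 0 to 2 on leaving out single libraries. On leaving out single libraries 3323 to 4325 genes were higher and 3266 to 4135 lower. The cause of these changes was otherwise not tested. Where a group was left with 1 clone, it was assumed to vary like the other group. No paired analysis was possible because the wild-type libraries carry no replicate or clone number. Depth in fragments is unknown, so differences among genes near 1 FPKM have no counting error attached.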
